A study of Homo sapiens with 12 samples.

Results

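The genes described here encode the nuclear m6A writer complex and the m6A erasers, in A549 cells, a human lung adenocarcinoma line. They were chosen by name: METTL3, METTL14, WTAP, KIAA1429 (renamed VIRMA), RBM15, RBM15B, CBLL1 and ZC3H13 for the writer complex, and FTO and ALKBH5 for the erasers. Of these 10 genes, 9 had a row among the 22564 genes of the table, 7 from the writer complex and 2 erasers, each with 1 gene identifier. RBM15B, a close relative of RBM15, was not analysed here. Total RNA was sequenced from 6 libraries of A549 cells transfected with a siRNA against YTHDC1 (siYTHDC1) and from 6 libraries transfected with a scrambled siRNA (siSCR), at 40 nM for 48 to 72 h. Apart from the siRNA, both groups shared the line, the medium and the library kit.

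N6-methyladenosine, or m6A, is the most abundant internal modification of eukaryotic mRNA. METTL3 transfers the methyl group to adenosine and METTL14 forms a heterodimer with it that holds the RNA. WTAP, KIAA1429, ZC3H13, CBLL1 and the RBM15 proteins form a regulatory complex that places this heterodimer in nuclear speckles and on its target transcripts. FTO and ALKBH5 are iron-dependent dioxygenases that remove the methyl group, and proteins with a YTH domain, among them the nuclear YTHDC1, bind it.

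The deposited value used for each gene was its mean normalized count over all 12 libraries, a read count scaled for library depth by the authors and then averaged over siYTHDC1 and siSCR libraries together. It therefore says how abundant each transcript was in the experiment as a whole, and neither the siYTHDC1 nor the siSCR level of any gene is given below. The mean comes without a spread, so that no gene could be shown to differ from another beyond replicate error, and how deeply each library was sequenced cannot be read from the table. To compare genes, the mean was divided by the length in kb of all exons of the gene merged, which gives the level per kb. All lengths come from a later annotation than the one used for counting, so that they can include bases that were not counted. No test was run on any level.

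The adenosines methylated by METTL3 lie in a short consensus, of which the GGACT form is the best known. The following stretches are the GGACT matches nearest to the stop codon in the canonical transcripts of the catalytic pair, of their adaptor WTAP and of the eraser ALKBH5. They are shown as examples of positions in the members' own transcripts that carry the letters the complex prefers, and each of these transcripts holds other matches. GGACT is in capitals, each stretch is read 5′ to 3′ on the strand of the gene, and coordinates are on GRCh37 (hg19).
METTL3: gcagaacaGGACTcgactaca
METTL14: acagacggGGACTtcattcat
WTAP: aatggcttGGACTcaagtgta
ALKBH5: tcctcagaGGACTgctctgag

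The METTL3 stretch is at chr14:21971481-21971501 on the minus strand, in coding sequence of exon 3 of 11, and its match starts 1195 bases before the stop codon. The METTL14 stretch is at chr4:119626808-119626828 on the plus strand, in coding sequence of exon 10 of 11, 463 bases before the stop codon. The WTAP stretch at chr6:160176599-160176619 and the ALKBH5 stretch at chr17:18111645-18111665, both on the plus strand, lie in coding sequence of the last exon, 34 and 55 bases before the stop codon. Each of these 4 stretches occurs in full in the canonical transcript of 1 protein-coding gene, its own. A match to these letters is a description of the sequence, and methylation was not measured in these libraries.

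The catalytic pair was measured at unequal levels. METTL3, the methyltransferase (chr14:21966277-21979484, minus strand, 11 exons in the canonical transcript), had a mean normalized count of 1003 and a level of 171 per kb, above 86.0% of all genes in the table with a known length. METTL14, its partner without catalytic activity of its own (chr4:119606547-119636588, plus strand, 11 exons), had a mean normalized count of 394, the lowest of the 9 genes, and a level of 57.7 per kb, above 62.1% of all genes. The level per kb of METTL3 was thus 2.97 times that of METTL14. The ratio was 6.69 with the longest transcript of each gene and 8.53 with the canonical transcript as the length, because the merged exons of METTL3 (5863 bases) are longer than its canonical transcript (1980 bases). With only the coding bases of the canonical transcript as the length, the ratio was 2.00, although reads from untranslated exons stayed in the count.

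Of the regulatory subunits, WTAP, the adaptor that binds the heterodimer (chr6:160146617-160177351, plus strand, 8 exons), had a mean normalized count of 824 and a level of 129 per kb. CBLL1, also known as HAKAI, a RING-type E3 ubiquitin ligase (chr7:107383518-107402112, plus strand, 6 exons), had a mean normalized count of 708 and a level of 130 per kb. These levels per kb differed by a factor of 1.01 and lay above 80.5% and 80.7% of all genes. KIAA1429, the scaffold of the regulatory complex (chr8:95499917-95565757, minus strand, 24 exons), had the highest count of the complex, 1551, and a level of 144 per kb, above 82.8% of all genes. It had 3.93 times the count of METTL14 but 2.50 times its level per kb, since its exons are longer (10775 against 6838 bases).

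RBM15, the RNA-binding subunit that recruits the complex to its targets (chr1:110881128-110889303, plus strand, 3 exons), had a mean normalized count of 928 and a level of 199 per kb, above 88.3% of all genes. By merged exons this was the highest level of the complex, whereas METTL3 was highest with either transcript length and WTAP with coding bases. ZC3H13, a zinc finger protein that keeps the complex in the nucleus (chr13:46528600-46626894, minus strand, 19 exons), had a mean normalized count of 800 and a level of 78.0 per kb, above 68.7% of all genes. The 7 genes of the writer complex thus spanned 3.44-fold per kb, with a median of 130 per kb, and 4 of the 7, the median gene CBLL1 included, lay within 1.5-fold of that median. All 7 lay above the median of all genes in the table, 32.2 per kb. Without RBM15 and METTL14, the highest and the lowest, the span of the complex was 2.19-fold.

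**Figure D1:**
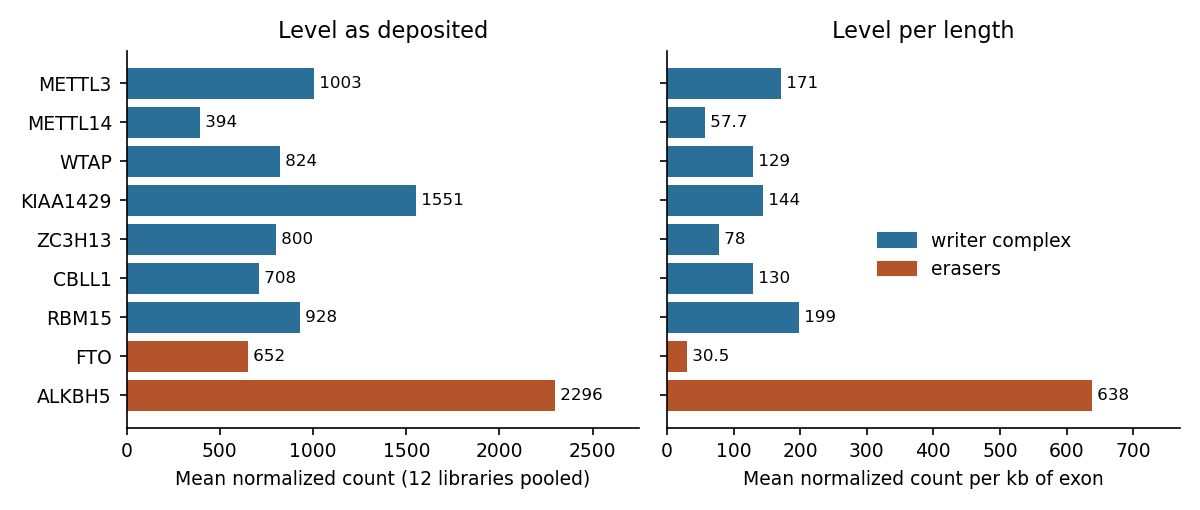
Mean normalized count over the 12 libraries (left) and the same per kb of merged exon (right) for the 7 genes of the writer complex (blue) and the 2 erasers (orange), 1 bar per gene with no error bar since the deposited mean has none. ALKBH5 had the longest bar in both panels (2296 and 638), while FTO, with a count of 652 close to the 708 of CBLL1, had the shortest bar per kb (30.5).

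By merged exons, the erasers stood at opposite ends of the 9 genes. ALKBH5 (chr17:18086392-18113268, plus strand, 4 exons) had the highest mean normalized count, 2296, and the highest level per kb, 638, above 97.8% of all genes. Its level was 3.21 times that of RBM15, the next gene in the order, but with the longest and the canonical transcript the next gene was METTL3 and the lead of ALKBH5 was 1.83-fold and 1.44-fold. FTO, a gene whose introns hold obesity-associated variants (chr16:53735604-54192424, plus strand, 9 exons), had a mean normalized count of 652 and the lowest level per kb, 30.5, above 49.0% of all genes. ALKBH5 thus had 3.52 times the count of FTO and 20.9 times its level per kb.

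This last ratio rested on the length taken for FTO. Its merged exons add up to 21379 bases, its canonical transcript has 11573 bases and the coding part of that transcript has 1518 bases. How many of these bases belonged to FTO in the earlier annotation used for counting was not examined. With the canonical transcript as the length, ALKBH5 was at 727 and FTO at 56.3 per kb, a ratio of 12.9, and with coding bases alone they were at 1938 and 430 per kb, a ratio of 4.51. The coding length leaves out untranslated exons, whose reads stayed in the count. For FTO these include a 3′ UTR of 10026 bases, against 1558 bases in ALKBH5. ALKBH5 was the higher of the pair under each of the 5 lengths tried.

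The order of the 9 genes per kb was ALKBH5, RBM15, METTL3, KIAA1429, CBLL1, WTAP, ZC3H13, METTL14 and FTO. From one gene to the next, the level dropped 3.21-fold after ALKBH5, then 1.16-, 1.19-, 1.11- and 1.01-fold down to WTAP, and 1.65-, 1.35- and 1.89-fold down to FTO. As the mean has no spread, none of these neighbours could be told apart from the next beyond replicate error. ALKBH5 was first under all 5 lengths. ZC3H13, METTL14 and FTO took the last 3 places under the 4 lengths that include untranslated exons, and with coding bases the last 3 were METTL14, KIAA1429 and ZC3H13. The 5 genes in the middle changed places: WTAP, at place 6 by merged exons, was at place 3 by canonical transcript (392 per kb) and at place 2 by coding bases (692 per kb).

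**Figure D2:**
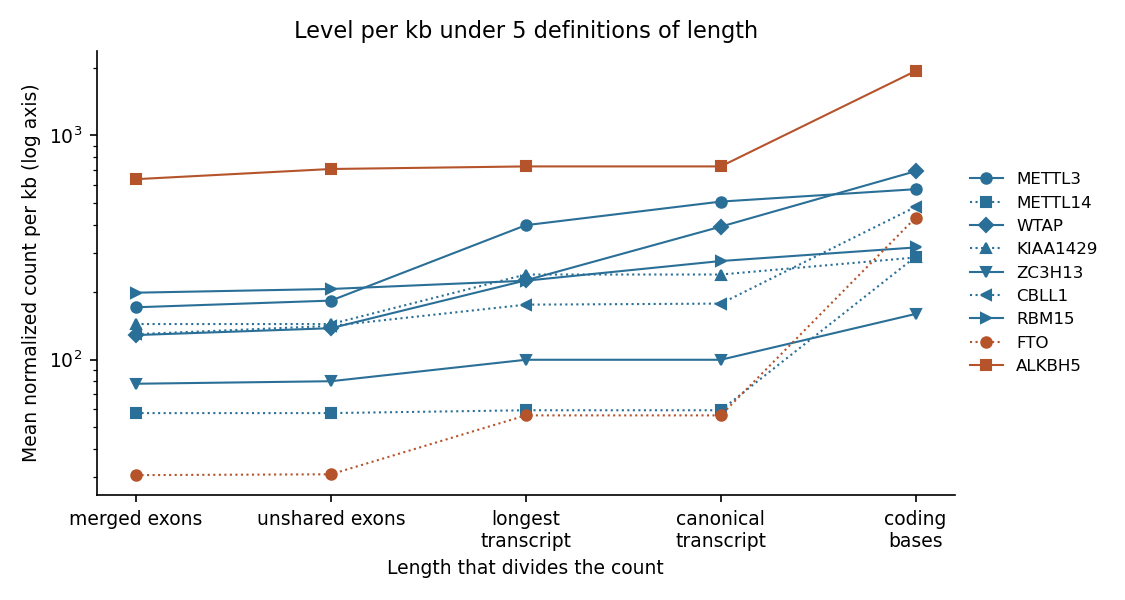
Mean normalized count per kb (log axis) of each of the 9 genes when the count is divided by 5 different lengths, with the writer complex in blue and the erasers in orange. ALKBH5 is the top line throughout, and FTO moves from 30.5 per kb of merged exon to 430 per kb of coding sequence, above RBM15, METTL14, KIAA1429 and ZC3H13. The count is the same at each length, so that reads from untranslated exons remain in it when coding bases divide it.

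Against protein-coding genes alone (14100 genes, median 58.6 per kb), 7 of the 9 genes lay above the median. ALKBH5 was above 96.8% of coding genes, RBM15 above 83.3%, METTL3 above 80.1%, KIAA1429 above 75.8%, CBLL1 above 72.9%, WTAP above 72.6% and ZC3H13 above 57.5%. METTL14, above 49.6%, and FTO, above 36.4%, were the genes under the median. By mean normalized count, without a length, all 9 genes lay above the median of 65.8 over all genes in the table.

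**Figure D3:**
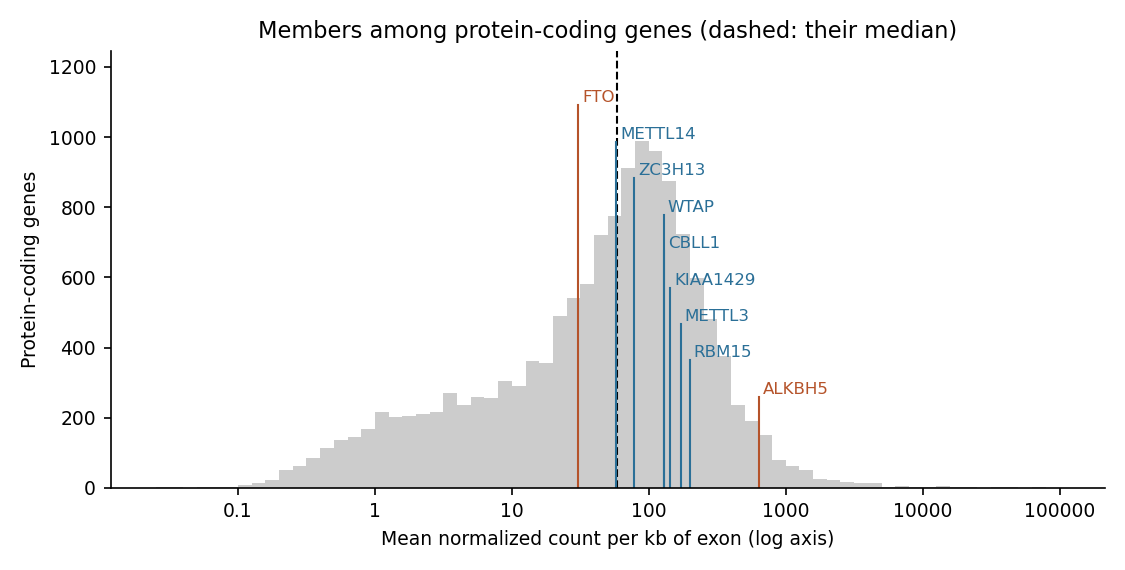
Distribution of the mean normalized count per kb of merged exon (log axis) over 14100 protein-coding genes (grey bars, number of genes per bin) with the writer complex (blue lines) and the erasers (orange lines) marked, line height chosen for legibility only. The dashed line is the median of 58.6 per kb, which METTL14 (57.7) nearly meets and FTO (30.5) falls short of.

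The levels were then set beside those of related genes. The writer complex, with a median of 130 per kb, was near the 6 genes for other enzymes known or proposed to methylate the N6 position of adenosine, or for their cofactors, with a median of 123 per kb. In that list the lowest was METTL4, at 37.6 per kb, and the highest was TRMT112, the small cofactor of several RNA and protein methyltransferases, at 424 per kb. The erasers belong to the AlkB family of dioxygenases, whose 7 other measured genes had a median of 75.9 per kb. ALKBH5 was 6.42 times the highest of these, ALKBH2, a DNA repair enzyme at 99.4 per kb, and 3.77 times with either transcript length. FTO lay below 6 of the 7 and above ALKBH6, at 13.4 per kb, but its place turned with the length: 5 of the 7 lay above FTO by longest transcript, and 0 of the 7 by coding bases, where FTO was at 430 and ALKBH2 at 290 per kb. Coding bases leave out untranslated exons, whose reads stayed in the count.

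The 9 genes described here spanned 30.5 to 638 per kb, against 33.0 to 901 per kb for the readers of the mark. The 5 YTH readers had a median of 253 per kb, with the cytoplasmic YTHDF1 highest by merged exons, at 383 per kb. YTHDF2 was highest by unshared exons (389 per kb, YTHDF1 383), by longest transcript (387, YTHDF1 384) and by canonical transcript (399, YTHDF1 384). By coding bases YTHDF3 was highest, at 886 per kb against 731 for YTHDF1. YTHDC1 was the lowest of the 5, with a mean normalized count of 232 and 33.0 per kb, a mean that includes the 6 libraries in which it was the target of the siRNA. All 7 writer genes lay above YTHDC1 under each of the 5 lengths, and METTL3 was at 5.19 times its level by merged exons, 10.7 times by longest and 13.6 times by canonical transcript. The 3 IGF2BP readers had a median of 190 per kb, with IGF2BP2 lowest at 88.6 and IGF2BP1 highest at 396 per kb. Among 6 other proteins proposed to bind m6A or the RNA structure it changes, the median was 478 per kb by merged exons, with FMR1 lowest at 36.2 and HNRNPC highest at 901 per kb, above ALKBH5. By longest transcript, HNRNPA2B1 was the highest of these, at 1564 per kb against 1460 for HNRNPC.

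**Figure D4:**
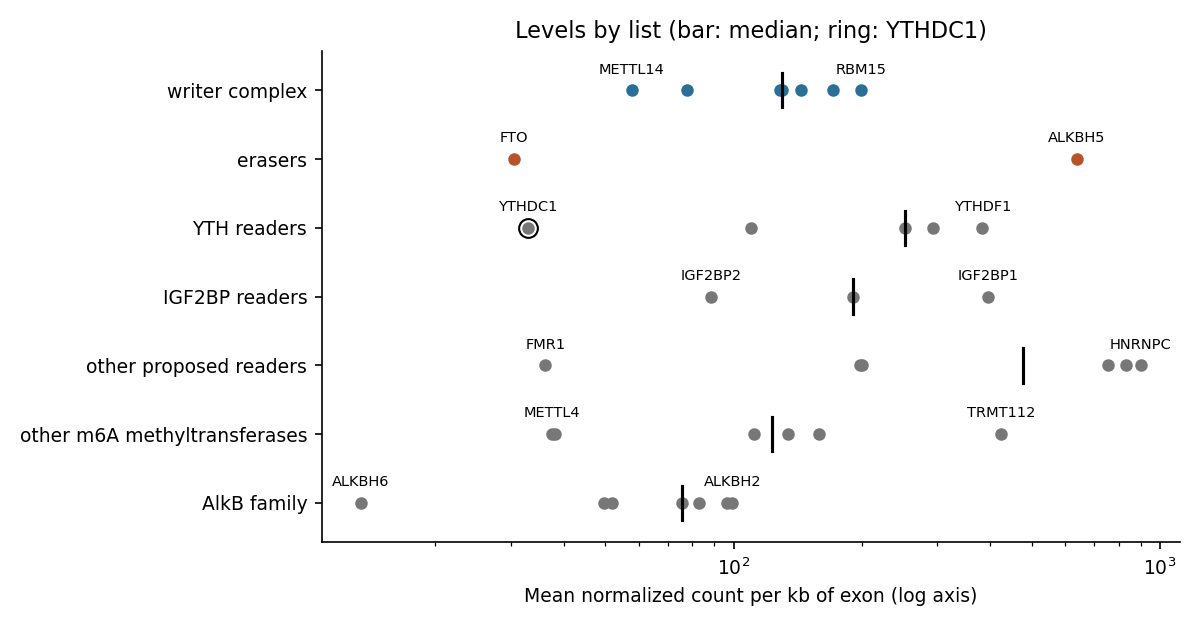
Mean normalized count per kb of merged exon (log axis), 1 point per gene, for the writer complex (blue), the erasers (orange) and 5 lists of related genes (grey), with a black bar at the median of each list of 3 or more genes and the lowest and highest gene named. The writer complex occupies 57.7 to 199 per kb, FTO (30.5) and YTHDC1 (33.0, ringed) lie close together, and ALKBH5 (638) lies to the right of all but 3 of the genes drawn.

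Where exons overlap, part of the counted reads could belong to another gene, and reads of the gene itself could have been left uncounted. Exons of 7 of the 9 genes overlap those of a gene on the opposite strand, by 0.851% of the exonic bases in FTO up to 9.91% in ALKBH5, whose partner is a lncRNA (ENSG00000266677) with a mean normalized count of 41.9. METTL3 shares 388 bases, 6.62% of its exonic bases, with TOX4, a chromatin protein with a mean normalized count of 947, close to the 1003 of METTL3 itself. WTAP shares 437 bases, 6.81%, with SOD2, the mitochondrial superoxide dismutase, which the table lists at 2023 under another identifier than the annotation's. RBM15, CBLL1 and ZC3H13 share 3.75%, 8.10% and 2.56% with antisense lncRNAs that had mean normalized counts of 14.5, 10.1 and 4.11. METTL14 and KIAA1429 share no exonic base with another gene. The library kit keeps the strand, but whether the counting used it is not stated, so that reads from these stretches cannot be assigned with certainty. Whether reads from the shared stretches were counted is not known, and they could not be removed from the deposited means. The processed pseudogene WTAPP1, on chromosome 11, had a mean of 3.89, or 0.471% of the WTAP mean. FTO-IT1, named for an FTO intron, had a mean of 46.2, or 7.09% of the FTO mean.

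The members also differed in how many GGACT matches their canonical transcripts hold. On the sense strand, all 9 held at least 1, as did 91.5% of 13944 protein-coding genes, so that holding one is no feature of these genes. Per kb of transcript, METTL3 had the highest density, 2.02 from 4 matches, all in coding sequence, above 91.4% of coding genes. WTAP followed with 1.90 per kb from 4 matches, above 89.4%, and KIAA1429 with 1.54 per kb from 10 matches, 9 of them in coding sequence. ALKBH5 (1.27 per kb, 4 matches), METTL14 (1.20, 8 matches), ZC3H13 (0.997, 8 matches) and RBM15 (0.889, 3 matches) lay around the median of 0.936 per kb. CBLL1, with 0.502 per kb from 2 matches, and FTO, with 0.432 per kb from 5 matches, all 5 in its 3′ UTR, lay above 20.9% and 17.0% of coding genes. With 2 to 10 matches per transcript, 1 match more or less moves these densities appreciably, and the transcript actually used in A549 cells is not known from the table.

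**Figure D5:**
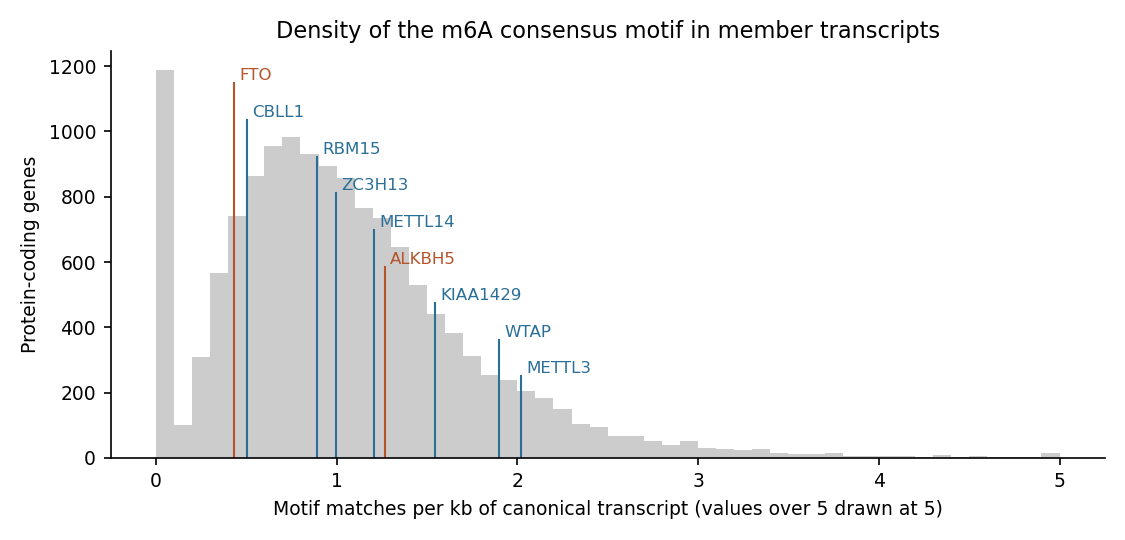
Matches to the m6A consensus form named in the text per kb of canonical transcript over 13944 protein-coding genes (grey bars, number of genes per bin, values over 5 drawn at 5), with the writer complex (blue lines) and the erasers (orange lines) marked at heights chosen for legibility. METTL3 (2.02) and WTAP (1.90) lie in the upper tail and FTO (0.432) and CBLL1 (0.502) in the lower part, around a median of 0.936.

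The siRNAs of the study are shown since their target sets what the libraries are. Which of the listed siRNAs against YTHDC1 was used here is not stated, and those whose sense strand was found in the canonical YTHDC1 transcript are printed.
siSCR: cagucgcguuugcgacugg
siRNA2_YTHDC1: cgaguaugcaaauauugaa
siRNA4_YTHDC1: cagagauaaacgaguacauga

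The siRNA2_YTHDC1 sense strand matches chr4:69179376-69179394, in exon 17 and the 3′ UTR of the canonical YTHDC1 transcript, and the siRNA4_YTHDC1 sense strand matches coding sequence across the junction of exons 16 and 17. None of the 3 strands matched a canonical transcript of the 9 genes over its full length on the sense strand. Partial matches were not searched.

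The labelled cell type was checked against markers. All 5 epithelial genes were in the table, with KRT8 at a mean normalized count of 27600, KRT18 at 14908 and EPCAM lowest at 58.4. Of 8 markers of other cell types, 3 were in the table, with means of 2.62 for CD68, 10.8 for COL3A1 and 194 for COL1A1. CD68 shares 85.6% of its exonic bases with other genes, so that its mean is a weak measure of this marker. Of the genes described as abundant in A549, ALDH1A1 reached 34836 and AKR1C1, the lowest, 2048.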

How the data were processed

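Strand-specific total RNA libraries of A549 cells (6 siYTHDC1 and 6 siSCR), depleted of rRNA, were aligned by the authors to hg19 with STAR, counted with HTSeq against the genes of an earlier GENCODE version and normalized with DESeq2. The replicates are separate libraries, and nothing used here says which came from separate cultures. The study's methods name a pair of sequencing batches, but not which library was in which. The deposited table holds signal values, the mean normalized count per gene pooled over all libraries, for 22564 genes. Its other columns hold the authors' own siYTHDC1 against siSCR comparison (fold change, its error, test statistic and p-values) and were not used, so no comparison between the groups was made. The table has no column per library.

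Gene identifiers without version were matched to GENCODE 44 mapped to GRCh37, the same build, for 21798 genes (96.6%). Gene models can differ from those the authors counted on. For each symbol the row with the highest mean was taken. Text names all 10 member genes, the highest and lowest gene of each comparison list, YTHDC1 and the genes whose exons overlap a member's. Canonical transcripts with a complete coding range were searched for GGACT on the sense strand only. The FTO stretch is not reported here. The members and lists were chosen with earlier results of these data known. Python 3.11.15, pandas 2.3.3, numpy 2.4.6 and matplotlib 3.10.9 were used, and the scripts were tested on simulated data. Alternatives were other lengths, unshared exons, protein-coding genes only, genes with a mean of at least 10 and sums over identifiers.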

Additional observations from a re-analysis of the deposited data

How the results depend on the processing

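The values depended mainly on the length that divides the count. With the longest and with the canonical transcript, the writer complex median was 225 and 239 per kb instead of 130, ALKBH5 over FTO was 12.9 under both instead of 20.9, METTL3 over METTL14 and the span of the writer complex were both 6.69 and 8.53, and METTL3 over YTHDC1 was 10.7 and 13.6 instead of 5.19. Coding bases were a length chosen after seeing the data, and the count divided by them still held reads from untranslated exons. With coding bases, the medians were 316 per kb for the writer complex and 1184 for the erasers (334 with merged exons). ALKBH5 over FTO was 4.51 and METTL3 over METTL14 was 2.00 instead of 2.97. WTAP over METTL3 was 1.20 instead of 0.752, which puts WTAP above METTL3. Without RBM15 and METTL14 the span of the writer complex was 2.19. Of the 9 single levels, 4 (METTL3, WTAP, KIAA1429 and FTO) moved by over 1.5 times with either transcript length and all 9 with coding bases. Dividing by unshared exonic bases could only raise a level or leave it, by a factor fixed by the share of bases removed. The largest share, 9.91% in ALKBH5, took its level from 638 to 708 per kb. The counts stayed as deposited, so this length says nothing about reads of overlapping genes. Ranking among protein-coding genes alone, or among genes with a mean of at least 10, moved 3 of 9 ranks by over 10 points. No paired analysis was possible because the table has no column per library. Leaving out a replicate could not be run for the same reason, and the depth of each library is not known from the table.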
